A study of Arabidopsis thaliana with 12 samples.

Results

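The transcripts described here encode 3 enzymes of the tetrapyrrole pathway, 3 of the 691 genes with a probe of their own among the 3439 probes of the array. CHLM (AT4G25080) and CHLP (AT1G74470) act in chlorophyll synthesis, and SIRB (AT1G50170) makes siroheme. They were chosen by gene identity, as probes whose platform annotation lists exactly 1 gene, with the result of the comparison between light and dark already known. The differences between light and dark given for these 3 genes are therefore descriptions without a test. On the array 692 probes list 1 gene, and 598 of them were bright enough to be tested.

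The study compared wild-type Arabidopsis thaliana of the ecotype Columbia 0, which is widely used in laboratories, in 2 states. The light group of 6 samples came from plants that received light for 1 h when the night had ended. The dark group of 6 samples came from plants left in darkness through the night. Total RNA was hybridised, and the labels give neither the plants' age nor their tissue, nor whether each sample is a separate plant. All samples share the genotype. Each state is 1 group, so light cannot be told apart from time after the night or from handling by group.

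Plants build chlorophyll, heme, bilins and siroheme from a common precursor that is made from glutamate in the plastid. After the common steps, uroporphyrinogen III can leave towards siroheme, the iron-containing cofactor of sulfite and nitrite reductase, while protoporphyrin IX receives either iron for heme or magnesium for chlorophyll. CHLM adds a methyl group to magnesium protoporphyrin IX and so acts in the middle of the chlorophyll branch. CHLP is geranylgeranyl reductase, which makes the phytyl chain that anchors chlorophyll in membranes and also serves tocopherol synthesis. SIRB is sirohydrochlorin ferrochelatase, which inserts iron in the last step of siroheme synthesis. Free chlorophyll intermediates are photosensitizers, and the chlorophyll branch is known to be under light control in green tissue.

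Each array gave 1 relative intensity for a probe, on a linear scale that ends at 100. Column sums were 2968 to 3477 in the light arrays and 2943 to 3683 in the dark arrays, and column medians ran from 0.204 to 0.271 in light and from 0.218 to 0.289 in dark. Exact zeros made up 11.7 to 15.5% of a light array and 13.0 to 15.7% of a dark array. Scaled intensity below means the value after quantile normalization, which gives all arrays the same distribution, so that it depends only on a probe's rank within its array. Of the leaf marker genes looked for, 4 of 8 were on single-gene probes, and all 4 gave signal in every array. These 4 also passed the threshold used below, with PSAN, LHCB1.5 and PRK higher and PSBW lower in light. Their summed scaled intensity was 80.7 to 112 in light and 85.6 to 126 in dark, and their part in the results was not tested. None of the 16 markers of root, guard cells, epidermis, phloem, flower or seed had a single-gene probe, so those cell types were not tested either. In such bulk RNA, fewer cells of a type and less RNA per cell cannot be told apart.

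The columns of a group were alike in pairs of consecutive replicate numbers. Across the 2966 probes tested, log2 values correlated at a median of 0.870 within the 6 consecutive pairs and 0.842 within the 24 other pairs of the same group. If consecutive columns are repeat measurements of the same material, SD and SE values over 6 arrays understate the spread between plants. Pair values are therefore given beside the single arrays.

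CHLM signal was higher in light. Its scaled intensity ran from 0.364 over a median of 0.494 to 0.718 in the 6 light arrays, and from 0.143 over a median of 0.254 to 0.372 in the 6 dark arrays. The groups overlapped slightly, since the lowest light array (replicate 4) lay just under the highest dark array (replicate 1), and 5 of the 6 light arrays lay above all dark arrays. The means were 0.498 ± 0.127 in light and 0.262 ± 0.078 in dark (SD, n = 6 each), a 1.90-fold difference of means. On the log2 scale the difference, light minus dark, was 0.95 (SE 0.23).

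Light was higher than dark for CHLM in 6 of 6 replicate numbers, by 0.50 to 1.44 on the log2 scale. Averaged over numbers 1 and 2, CHLM stood at 0.624 in light and 0.345 in dark. For numbers 3 and 4 it stood at 0.376 in light and 0.200 in dark, and for numbers 5 and 6 at 0.494 in light and 0.241 in dark. Numbers 1 and 2 thus had the highest signal in both groups, while the log2 difference was similar in the 3 pairs, at 0.85, 0.97 and 1.04.

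As deposited, before the scaling applied here, CHLM was at 0.366 to 0.572 in light and 0.150 to 0.399 in dark. On those values 4 of 6 light arrays lay above all dark arrays, and the log2 difference was 0.71. Dark replicate 3 was the lowest array on either scale.

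CHLP signal moved the other way. Its scaled intensity ran from 2.18 over a median of 2.89 to 3.12 in light, and from 3.203 over a median of 3.76 to 3.89 in dark. The groups did not overlap, but the highest light value and the lowest dark value were close. The means were 2.80 ± 0.35 in light and 3.67 ± 0.28 in dark (SD, n = 6 each), which put light at 0.762 times dark, and the log2 difference was -0.40 (SE 0.11).

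Relative to its size, the CHLP difference depended on the scaling more than that of the other enzymes. As deposited, CHLP was at 1.87 to 2.73 in light and 3.08 to 5.11 in dark, so that light was at 0.550 times dark and the log2 difference was -0.85. The median log2 difference of all probes was itself -0.21 on deposited values, and relative to that median CHLP stood at -0.65. With quantile normalization the median of all probes was -0.01, and CHLP stood at -0.39 relative to it. The probe was bright, at an average percentile of 95.1 among tested probes in light and 96.2 in dark. Dark replicates 1, 3 and 4 received the same scaled value, since the probe had the same rank in them, although their deposited values were 4.67, 4.89 and 5.11.

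Light was lower than dark for CHLP in 6 of 6 replicate numbers, which follows from groups that did not overlap. The log2 differences of the number pairs were -0.62 for 1 and 2, -0.34 for 3 and 4, and -0.24 for 5 and 6. Light replicate 2 had the lowest scaled value, at 2.18, and dark replicate 6 was the dark array closest to the light group.

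SIRB had the largest difference of the 3 enzymes on the log2 scale. Its scaled intensity ran from 0.241 over a median of 0.320 to 0.439 in light, and from 0.0275 over a median of 0.111 to 0.1197 in dark. Every light array was above every dark array. The means were 0.333 ± 0.081 in light and 0.0945 ± 0.0354 in dark (SD, n = 6 each), a 3.53-fold difference of means. The log2 difference was 1.93 (SE 0.35).

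Dark replicate 2 stood apart from the other dark arrays for SIRB. It was at 0.0275 scaled and 0.0146 as deposited, while the other dark arrays were at 0.0791 to 0.128 as deposited. Without that array the log2 difference was 1.58 (SE 0.18). By pairs of numbers, the log2 differences were 2.82 for 1 and 2, which include that array, 1.70 for 3 and 4, and 1.28 for 5 and 6. The scaled pair means were 0.401 in light and 0.0719 in dark for numbers 1 and 2, 0.323 in light and 0.0977 in dark for 3 and 4, and 0.275 in light and 0.114 in dark for 5 and 6.

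The SIRB probe was dim in the dark. Its dark values lay at an average percentile of 16.1 of the tested probes, against 53.6 for its light values. No dark value was at 0, and none was at the floor of 0.00675 given to the lowest values. All 6 dark values were below the 25% quantile of positive deposited values (0.145), and with the floor raised to that quantile the log2 difference was 1.16. The sources used here do not give how far such signals lay above the background of the array.

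**Figure D1:**
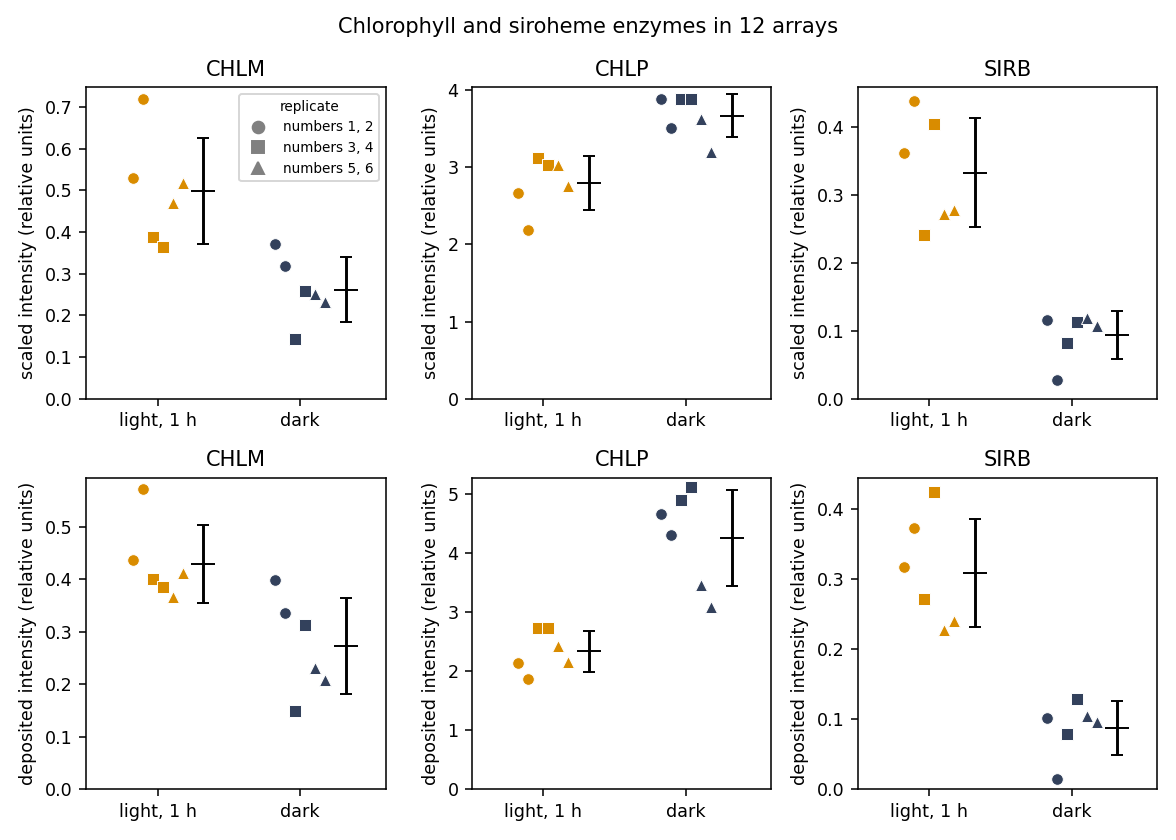
Scaled (top) and deposited (bottom) intensity of CHLM, CHLP and SIRB in each array, light left and dark right, with the mean and SD of 6 arrays in black and symbols for pairs of replicate numbers. CHLM and SIRB were higher in light, with groups that overlapped slightly for CHLM and did not overlap for SIRB, while CHLP was lower in light with no overlap. SIRB in dark replicate 2 lies at 0.0275 scaled.

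All 3 enzymes passed an adjusted p threshold of 0.05 in limma's fit across all probes, where 40.4% of the probes tested passed (19.9% higher and 20.5% lower in light). The groups did not overlap in scaled intensity for 2 of the 3, CHLP and SIRB, where 26.6% of all tested probes had no overlap. On deposited values the same 2 genes had no overlap, where 27.4% of all tested probes had none. Since the enzymes were chosen with these results known, nothing is read from either count. With consecutive numbers averaged to 3 values a group, 1 of the 3 passed, namely SIRB, where 27.4% of all tested probes passed. Without replicates 5 and 6 it was again SIRB alone, where 28.7% of all tested probes passed. The median log2 difference of the 3 enzymes was 0.95 and its median size 0.95, while over all tested probes the median was -0.01 and the median size 0.55. The median of the enzymes is the value of CHLM and describes no common shift, since CHLP moved the other way. Nothing is read from these medians either, for the same reason as for the counts.

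**Figure D2:**
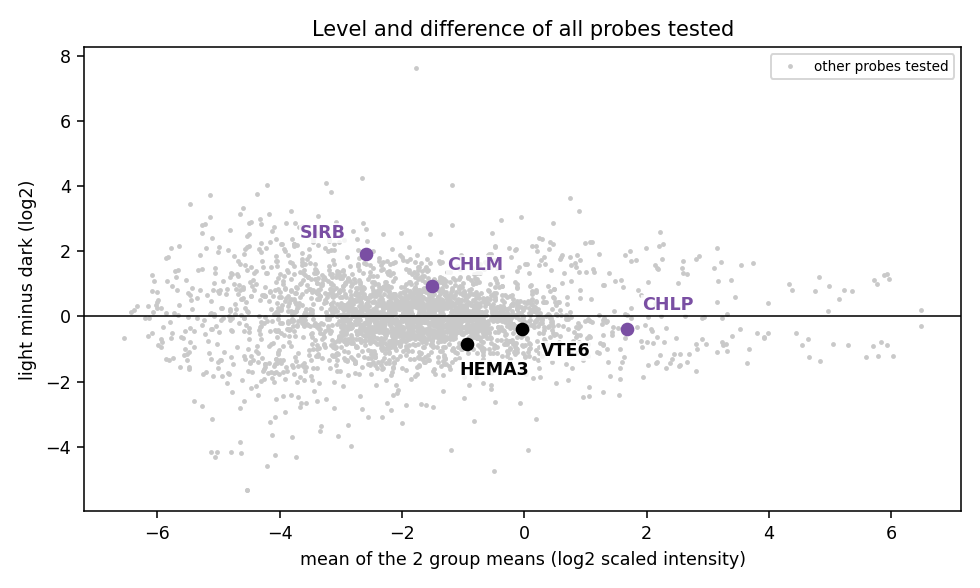
Difference between light and dark (log2, vertical) against the mean of both group means (log2 scaled intensity, horizontal) for the 2966 probes tested in grey, with CHLM, CHLP and SIRB in purple and HEMA3 and VTE6 in black. CHLM at 0.95 and SIRB at 1.93 lie above 0, CHLP at -0.40 lies below, and all lie within the range of the other probes.

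A ratio of 2 probes in the same array does not move when that array is scaled by a constant, so it shows unequal change free of such scaling. Its absolute value says nothing of transcript abundance, because probes differ in how they bind. On deposited values the log2 ratio of CHLM to CHLP was -2.82 to -1.71 in light and -5.03 to -3.55 in dark, with means of -2.45 ± 0.42 in light and -4.01 ± 0.53 in dark (SD, n = 6 each). The groups did not overlap, and neither did those of CHLP alone, although those of CHLM alone did. CHLM and SIRB were each known to move opposite to CHLP, so their ratios to CHLP had to differ between groups. These ratios are given as a description. The ratio was 2.96-fold higher in light, a log2 difference of 1.56, and 1.35 on scaled values.

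The log2 ratio of SIRB to CHLP separated the groups further, at -3.41 to -2.33 in light and -8.21 to -5.01 in dark. SIRB relative to CHLM was at -0.79 to 0.14 in light and -4.53 to -0.92 in dark on deposited values, so these groups were close without overlap. On scaled values the same ratio overlapped, at -0.90 to 0.16 in light and -3.53 to -0.80 in dark. Dark replicate 2 gave the lowest value of both SIRB ratios.

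**Figure D3:**
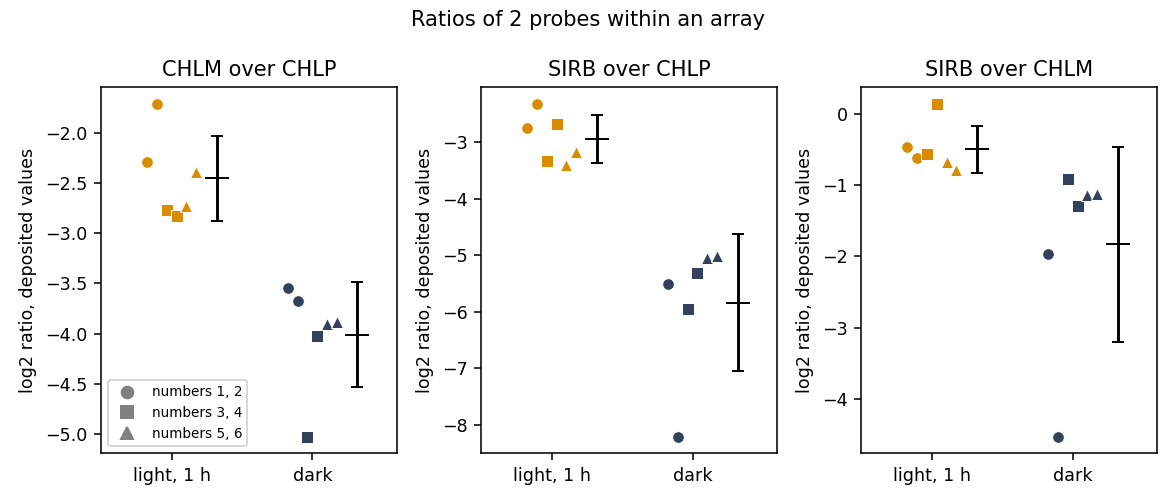
Log2 ratio of deposited intensities of 2 probes within each array, light left and dark right, with mean and SD of 6 arrays in black. CHLM over CHLP ran from -2.82 to -1.71 in light and from -5.03 to -3.55 in dark, and dark replicate 2 is the low point of both SIRB ratios.

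The spread among arrays of the same group enters the calls on which the genes were known, so it is given as a description. The SD left after taking off group means was 0.42 on the log2 scale for CHLM, higher than in 75.7% of the 300 probes nearest to it in level, whose median was 0.32. For CHLP it was 0.16, and 43.7% of its 300 nearest probes were lower. For SIRB it was 0.63, above 66.0% of its neighbours, with dark replicate 2 contributing most. Arrays of consecutive numbers differed by a median of 0.18 for CHLM, 0.14 for CHLP and 0.37 for SIRB on the log2 scale. The largest such gaps were 0.85 for CHLM, between dark replicates 3 and 4, and 2.08 for SIRB, between dark replicates 1 and 2.

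The deviations of the enzymes within their groups were compared in pairs. Over the 12 arrays with group means taken off, Pearson's r of log2 scaled intensity was -0.50 between CHLM and CHLP, -0.13 between CHLP and SIRB and -0.01 between CHLM and SIRB. These values share arrays and scaling and are given as a description. Dark replicate 2, which stood apart for SIRB, weighs heavily on both r values with SIRB. Neither a shared pattern nor its absence is therefore read from them. In the raw pattern over all arrays, which includes the difference between groups, the same correlations were -0.82, -0.73 and 0.67.

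The genes most like each enzyme were taken among 489 other single-gene probes that never reached the floor, by Pearson's r over the 12 arrays. With group means taken off, CHLM was most like AT5G26850 (r = 0.91), LHB1B2 (AT2G34420, r = 0.84) and AT1G27610 (r = 0.82), where 95% of the probes were under 0.66. LHB1B2, also called LHCB1.5, encodes a light-harvesting protein that binds chlorophyll in the photosystem II antenna. It also led in the raw pattern (r = 0.93), followed by PRK (r = 0.89), the Calvin cycle kinase that makes ribulose bisphosphate, and AT1G76240 (r = 0.88). In that pattern 95% of the probes were under 0.80. The raw ranking includes the difference between groups, by which CHLM was already known. PRK and AT1G76240 were themselves higher in light (log2 differences 2.02 and 1.31). Neither was among the genes listed above with group means taken off. No likeness of CHLM to these genes beyond the difference between groups is therefore read from the raw ranking. AT5G26850 itself was lower in light (log2 difference -0.52), whereas LHB1B2 was higher (1.22).

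CHLP was most like AT4G05070 by both measures, with r = 0.88 when group means were taken off and 0.95 in the raw pattern. For these measures 95% of the probes were under 0.62 and 0.84. AT5G22340 came next by both, at 0.84 and 0.95. The third places went to AT1G02020 (r = 0.79) with group means taken off and to AT4G39690 (r = 0.93) in the raw pattern. All 4 were lower in light, by log2 differences from -1.49 to -0.70. In the raw pattern the ranking itself includes the difference between groups, so nothing is read from the direction shared there.

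For SIRB the likeness within groups rested on 1 array. AT4G30740 (r = 0.82), AT1G51110 (r = 0.64) and AT1G55440 (r = 0.64) led with group means taken off, but without dark replicate 2 their r was 0.40, 0.20 and 0.31. In the raw pattern AT4G30740 (r = 0.93), AT3G15900 (r = 0.89) and AT1G24040 (r = 0.87) were most like SIRB, and without that array their r was 0.85, 0.88 and 0.89. Over all 12 arrays, 95% of the probes were under 0.42 with group means taken off and under 0.81 in the raw pattern. As for CHLM and CHLP, the raw ranking includes the difference between groups, so nothing is read from it.

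Most of the tetrapyrrole pathway could not be read singly on this array. Of 68 loci in 7 lists of the pathway and its suppliers, 6 were on single-gene probes and 5 of those were tested. Beside the 3 enzymes these were HEMA3 of the common early steps and VTE6 of the phytol and isoprenoid supply. Both were lower in light, where 20.5% of all tested probes were called lower. The lists for chlorophyll breakdown (11 loci), the heme and bilin branch (7 loci) and the siroheme enzymes (2 loci) had no single-gene probe. A further 4 tested probes match several genes of 1 list and no other gene, and of these 1 was higher, 0 were lower and 3 did not pass.

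HEMA3 (AT2G31250) belongs to the family of glutamyl-tRNA reductases, which catalyse the first committed step towards all tetrapyrroles. Its scaled intensity ran from 0.355 over a median of 0.391 to 0.435 in light, and from 0.643 over a median of 0.708 to 0.764 in dark. The groups did not overlap, so light was necessarily lower in 6 of 6 numbers. HEMA3 averaged 0.392 ± 0.026 in light and 0.699 ± 0.048 in dark (SD, n = 6 each).

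The log2 difference of HEMA3 was -0.83 (SE 0.09, limma, Benjamini-Hochberg adjusted p = 1.1e-05). With consecutive numbers averaged it still passed (limma, adjusted p = 0.0088), and it did so in 33 of 33 other settings. All these settings draw on the same arrays. The lists that hold HEMA3 and VTE6 were chosen with earlier results of these data known. The adjusted p values of both genes are therefore given as descriptions. The SD of HEMA3 within groups, 0.10 on the log2 scale, was among the smallest, with 0.333% of the 300 probes nearest in level below it. HEMA3 has close relatives in the genome, and whether their transcripts bind this probe was not tested.

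VTE6 (AT1G78620) is phytyl-phosphate kinase, which acts in the re-use of phytol for tocopherol synthesis, next to the phytyl chain that CHLP makes. Its scaled intensity ran from 0.699 over a median of 0.860 to 1.01 in light, and from 0.999 over a median of 1.05 to 1.28 in dark. The groups overlapped slightly, with 5 of 6 light arrays below all dark arrays. The log2 difference was -0.37 (SE 0.12, limma, Benjamini-Hochberg adjusted p = 0.029).

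The call for VTE6 depended on the setting. It passed in 19 of 33 other settings and was lost with consecutive numbers averaged (limma, adjusted p = 0.15) and when any 1 pair of numbers was left out (limma, adjusted p from 0.056 to 0.17). It was also lost without replicate number 1, 2, 3, 4 or 5, and without any of dark arrays 1 and 2 or light arrays 2, 3 and 4 (limma, adjusted p from 0.052 to 0.11). As with CHLP, the difference was larger on deposited values and with centring, but slightly smaller with cyclic loess (-0.36 for VTE6). It was -0.96 on deposited values (limma, adjusted p = 1.1e-04), which were 0.558 to 0.755 in light and 1.07 to 1.58 in dark. Relative to the median of all probes, VTE6 stood at -0.75 on those values. The difference was -0.84 with median centring and -0.59 with 75th percentile centring (limma, adjusted p = 2.8e-04 and 0.0022).

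HEMN (AT5G63290), listed among the common early steps, was not tested. It was listed at 0 in 4 of 6 light arrays and in 6 of 6 dark arrays, and its highest deposited value was 0.00511.

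The size of the differences varied with the pair of replicate numbers. The pair of numbers 1 and 2 had the largest log2 difference for CHLP, SIRB, HEMA3 (-0.93, -0.89 and -0.68 in the 3 pairs) and VTE6 (-0.63, -0.37 and -0.12), but not for CHLM. Over all tested probes the median size of the difference was 0.60 for numbers 1 and 2, 0.63 for 3 and 4, and 0.57 for 5 and 6. The pair with the largest size over all probes was thus not the pair with the largest size for these 4 genes.

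**Figure D4:**
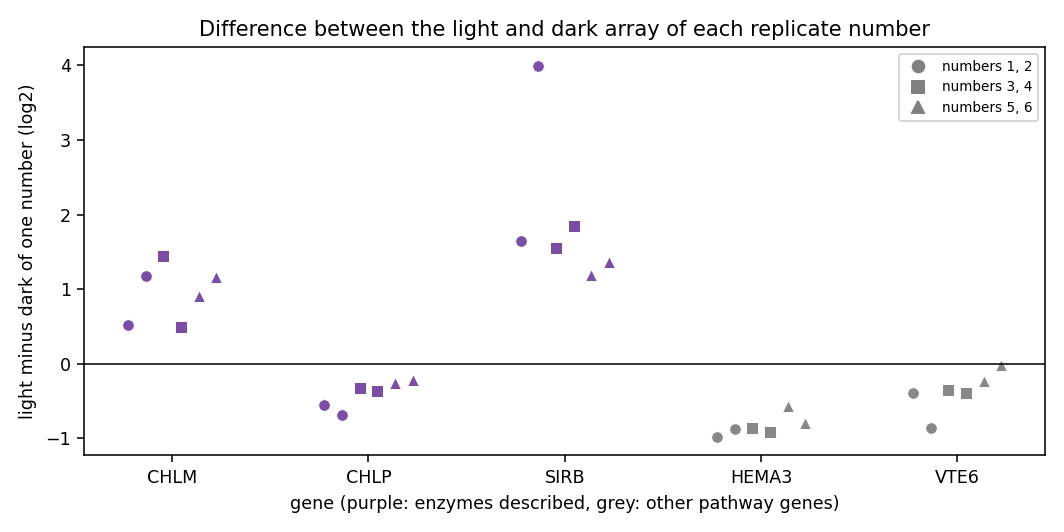
Light minus dark on the log2 scale for each replicate number, for CHLM, CHLP and SIRB (purple) and for HEMA3 and VTE6 (grey), with symbols for pairs of numbers. CHLM and SIRB lie above 0 in 6 of 6 numbers and CHLP, HEMA3 and VTE6 below 0 in 6 of 6, with SIRB at 3.99 for number 2 and VTE6 at -0.02 for number 6.

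The direction of each of the 3 enzymes was the same in all 33 other settings of scaling, floor, filter, model and arrays left out. Many of these settings had little room to reverse it. The filter, the block, the averaging and the variance trend left the difference itself unchanged. Each enzyme also had the same direction in 6 of 6 replicate numbers, before any were left out. Over these settings the log2 difference ran from 0.71 to 1.08 for CHLM, from -0.85 to -0.29 for CHLP and from 1.16 to 2.41 for SIRB.

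**Figure D5:**
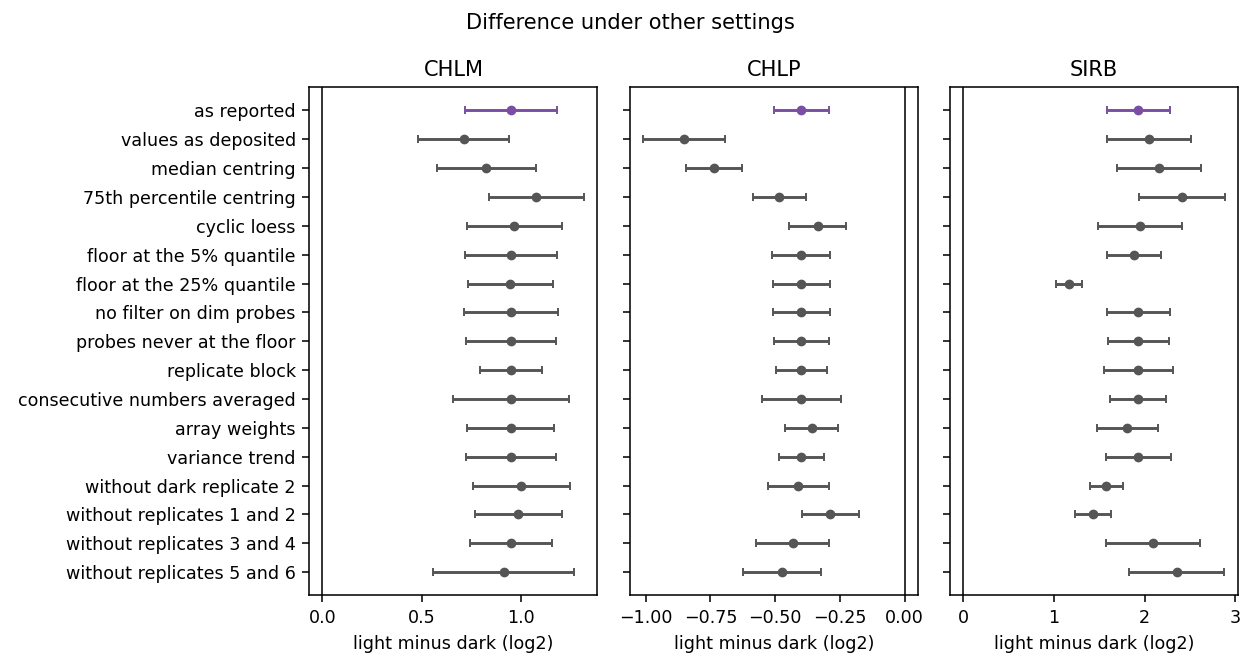
Log2 difference between light and dark with its SE for CHLM, CHLP and SIRB, as reported (purple) and under other settings (grey). CHLM and SIRB stay above 0 and CHLP below 0, with CHLP largest in size on values as deposited (-0.85) and SIRB smallest with the floor at the 25% quantile (1.16).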

How the data were processed

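The authors deposited 1 intensity for every probe on every array. The sources used here do not give how it was scanned, background-corrected or scaled. Column medians of 0.204 to 0.289 showed that the medians of the arrays had not been equalised. Whether values were centred or scaled in another way is unknown. Quantile normalization was applied, then a floor at the 1% quantile of positive values (0.00675), then log2. The filter on dim probes removed the 473 of 3439 that were at the floor in more than 6 arrays. The comparison of light with dark used limma 3.58.1 (R 4.3.3, lmFit and eBayes, two-sided, Benjamini-Hochberg, threshold 0.05), a fit first tested on simulated data. Those data were drawn independently for each array, so they could not show the effect of columns that are alike in pairs. The number of arrays limits the precision, and p-values rest on a spread between samples that may be technical. The smallest and largest correlations of deviations from the group means between same-numbered light and dark columns were 0.17 and 0.32 over 2966 probes. The numbers were therefore taken to pair the samples where light and dark are compared by number, as read from the data and not from the labels. The main fit, which gave the SE and adjusted p values, did not use this pairing. A fit with the replicate number as a block is given as an alternative.

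The platform annotation, which is old, lists 1 gene for 692 probes (690 matched by gene identifier to a TAIR10.1 gene table), several for 870 and none here for 1877. Probes with several genes name none, and no coordinates are given because the sources used here name no genome build for the array. Pathway genes on tested single-gene probes were named in full, and the 3 most like genes of each enzyme by correlation. The enzymes, lists and rules were chosen with earlier results of these data known. Figures were drawn with matplotlib 3.10.9.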

Additional observations from a re-analysis of the deposited data

Results flagged for a closer look

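Of 10 sets of 6 log2 values checked, for 5 genes in 2 groups, 1 held an array whose gap to its nearest neighbour as a share of the range passed Dixon's critical value for 6 samples, a limit that chance passes in about 1 set in 20. The log2 scaled intensity of SIRB was -5.18 in dark replicate 2, while the other dark arrays had a median of -3.14, and the gap was 0.744 of the range. Its cause was not tested.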

How the results depend on the processing

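CHLM, CHLP, SIRB, HEMA3 and VTE6 kept their direction in all 33 alternatives, some of which leave the difference itself unchanged. The log2 difference of CHLP was -0.85 on values as deposited and -0.74 with median centring, and that of SIRB was 1.16 with the floor at the 25% quantile, which lies above all its dark values. Of the 3 enzymes, 1 passed the threshold with consecutive numbers averaged, where 27.4% of all tested probes passed.

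Leaving out 1 array, 1 number or 1 pair of numbers gave 0.78 to 1.05 for CHLM, -0.47 to -0.29 for CHLP and 1.43 to 2.35 for SIRB on the log2 scale, and 1.16 to 1.48 for the ratio of CHLM to CHLP. Between 1 and 3 of the 3 enzymes passed, with 1 only without replicates 5 and 6, where 28.7% of all tested probes passed. CHLP did not pass without any 1 pair of numbers, and CHLM not without replicates 5 and 6. Over the same settings 427 to 580 probes were higher and 430 to 606 lower in light, against 589 and 609 of 2966 with all arrays. Nothing is read from the counts of enzymes.

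With the replicate number as a block, the SE was 0.16 for CHLM, 0.10 for CHLP and 0.38 for SIRB. The log2 differences stayed at 0.95, -0.40 and 1.93. All 3 passed, where 1314 of 2966 tested probes passed. HEMA3 and VTE6 also still passed, at larger adjusted p values than without the block (limma with the block, 6.4e-04 and 0.049). The block called 641 probes higher and 673 lower, against 589 and 609 without it. Of the probes called, 49.2% were higher in light after quantile normalization, 32.5% on values as deposited, 39.2% with median centring and 58.9% with 75th percentile centring. Dim signal limits SIRB in the dark.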
